A study of Drosophila melanogaster with 3 samples.

Results

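The small nucleolar RNA (snoRNA) and small Cajal body RNA (scaRNA) genes of Drosophila melanogaster, with the genes that host them, were examined for ChIP-seq peaks of the protein CG12219. Members were all genes whose symbol in the Ensembl BDGP6.54 annotation begins with snoRNA: or scaRNA:, which gave 274 of the 18277 genes on the 7 chromosomes used. A host was the shortest gene on the same strand that contains the small RNA gene, and 251 members lay in 96 hosts, while 23 had none. The samples were 3 biological replicates of 1 group: mixed-sex whole embryos, collected 0 to 18 h after laying, of a transgenic line that carries GFP at the C-terminus of CG12219. The labels do not give what drives the tagged gene, and whole embryos pool all cell types. The label text calls each sample an input control in 1 free-text line, whereas the assay title, the antibody field and the separate control experiment describe immunoprecipitated chromatin, and the lists are treated as that here. No control or untagged precipitation was analysed here. There was 1 list of 30000 calls for each replicate, 1 of 30000 calls for the pooled alignments, and 1 of 4187 peaks kept by the irreproducible discovery rate (IDR) procedure, which were the 4187 pooled calls of highest signal. Read depth behind the lists is unknown, and a signal value is the authors' own score for a peak, so peaks are compared by rank within a list.

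SnoRNAs guide chemical modification of other RNAs, mainly ribosomal RNA, by base pairing with the site to be modified. Box C/D snoRNAs direct 2′-O-methylation and carry a C box near the 5′ end and a D box near the 3′ end, while box H/ACA snoRNAs direct the change of uridine to pseudouridine and end a few bases after an ACA. ScaRNAs do the same for spliceosomal RNAs in Cajal bodies. In flies nearly all are cut from introns of longer transcripts, many of them of ribosomal protein genes or of noncoding U snoRNA host genes (Uhg), so that transcription starts at the promoter of the host. Ribosomal protein genes typically start within a run of pyrimidines, the TCT initiator, rather than at the usual initiator.

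The symbols placed 106 members among guides of pseudouridylation (Psi), 78 among guides of methylation (Me), 15 among orphan box C/D and 9 among orphan box H/ACA RNAs, 16 among RNAs named after vertebrate U RNAs, 17 among scaRNAs, and 33 in none of these. In the sequence of the genes, an ACA starting 4 to 8 bases before the 3′ end was present in 102 of 106 Psi genes (96.2%) and in 3 of 78 Me genes (3.85%). A D box (CTGA in the last 25 bases) was present in 75 of 78 Me genes (96.2%) and 6 of 106 Psi genes (5.66%), and a C box (TGATGA in the first 25 bases) in 60 of 78 Me genes (76.9%) and in no Psi gene. In these 2 classes the names went with the letters of the genes. The orphan classes were less uniform: the C box was in 5 of 15 orphan box C/D genes (33.3%) and the D box in 14 (93.3%), and the ACA was in 5 of 9 orphan box H/ACA genes (55.6%) and 3 of 15 orphan box C/D genes (20%). Me genes had a median length of 79 bp, and Psi genes one of 140 bp.

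Shown first are 4 members with an IDR summit within 500 bp of their own 5′ end, which stand for the 2 kinds of small RNA gene, as read 5′ to 3′ on the RNA strand of the RefSeq Release 6 (dm6) genome, with T for U; capitals mark the C box and D box in the first 2 and the ACA in the others. snoRNA:U49:66Da (chr3L:8601473-8601552, plus strand) lies in an intron of RpL14 and snoRNA:Me18S-A1576 (chr2L:9894795-9894907, minus strand) within the noncoding host Uhg2. snoRNA:Psi28S-1232 (chrX:6743675-6743815, minus strand) lies within RpL17 and snoRNA:Or-aca2 (chrX:7901062-7901203, minus strand) within RpS6.
snoRNA:U49:66Da: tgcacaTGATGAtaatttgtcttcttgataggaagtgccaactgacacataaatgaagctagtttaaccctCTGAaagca
snoRNA:Me18S-A1576: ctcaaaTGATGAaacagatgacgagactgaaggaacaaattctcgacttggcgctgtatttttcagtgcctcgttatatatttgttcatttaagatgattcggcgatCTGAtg
snoRNA:Psi28S-1232: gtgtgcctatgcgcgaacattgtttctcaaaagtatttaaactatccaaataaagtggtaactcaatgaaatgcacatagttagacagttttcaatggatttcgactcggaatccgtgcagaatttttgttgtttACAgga
snoRNA:Or-aca2: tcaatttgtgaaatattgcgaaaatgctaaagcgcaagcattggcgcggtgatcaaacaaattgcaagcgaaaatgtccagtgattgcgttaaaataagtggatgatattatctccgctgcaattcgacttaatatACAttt

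The start sites of 10 hosts are shown because the peaks lie at host starts: 7 with an IDR summit within 500 bp and, last, 3 without one that hold many small RNAs. Each runs from 60 bases before the start to 10 bases from it, on the gene's strand of the same genome, and capitals mark a TCT-like start (CTTTC or CTTTT beginning within 5 bases of the start), the DRE letters TATCGATA, the TATA letters TATAAA or the E-box letters CACGTG. For called hosts the start is the one nearest to the summit, and for the others the 5′-most. The called ones are RpL14 (chr3L:8600946-8601015, plus strand), RpL3 (chr3R:11221834-11221903, plus strand), RpL30 (chr2L:19009228-19009297, minus strand), RpS7 (chr3R:30208933-30209002, minus strand), RpS5a (chrX:17148255-17148324, minus strand), RpS6 (chrX:7901322-7901391, minus strand) and Uhg2 (chr2L:9894994-9895063, minus strand). The others are Arpc2 (chr2L:20416997-20417066, plus strand), kra (chr3R:5601127-5601196, minus strand) and Hrb98DE (chr3R:28599774-28599843, plus strand). All 6 ribosomal protein starts shown hold a TCT-like start, RpS6 also holds the DRE letters and Uhg2 the E-box letters. The windows of Arpc2, kra and Hrb98DE hold no TATCGATA, TATAAA or CACGTG. They also hold no CTTTC or CTTTT that begins within 5 bases of the start, though kra and Hrb98DE hold such letters farther upstream. The 10 are picked examples and do not stand for all hosts. Over all start sites of ribosomal protein hosts, 41.1% hold a TCT-like start.
RpL14: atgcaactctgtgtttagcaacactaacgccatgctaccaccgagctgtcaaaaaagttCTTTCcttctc
RpL3: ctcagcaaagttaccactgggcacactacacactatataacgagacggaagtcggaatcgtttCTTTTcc
RpL30: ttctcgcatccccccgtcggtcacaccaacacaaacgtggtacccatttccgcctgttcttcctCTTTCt
RpS7: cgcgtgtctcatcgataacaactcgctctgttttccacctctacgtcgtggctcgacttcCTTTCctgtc
RpS5a: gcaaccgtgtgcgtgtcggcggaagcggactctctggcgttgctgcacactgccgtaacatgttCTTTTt
RpS6: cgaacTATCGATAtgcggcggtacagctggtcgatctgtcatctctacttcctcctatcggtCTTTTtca
Uhg2: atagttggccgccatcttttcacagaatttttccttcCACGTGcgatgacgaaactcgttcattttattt
Arpc2: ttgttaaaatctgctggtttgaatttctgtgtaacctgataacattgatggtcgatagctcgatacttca
kra: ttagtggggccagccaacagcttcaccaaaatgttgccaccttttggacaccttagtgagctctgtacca
Hrb98DE: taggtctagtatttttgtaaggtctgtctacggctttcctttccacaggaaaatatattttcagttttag

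Few small RNA genes had a peak at their own start, whereas many of their hosts did. An IDR summit within 500 bp of the small RNA's own 5′ end was found for 16 of 274 members (5.84%, exact Clopper-Pearson 95% interval 3.37 to 9.31%), against 12.2% of all genes and 8.45% of genes with 1 annotated start site, counted over any start site of the gene. The same window around a start site of the host held an IDR summit for 46 of 96 hosts (47.9%, 37.6 to 58.4%), against 14.3% of protein-coding genes. Intervals here treat genes as separate draws and cover counting error only, and no test was made over the list. Counted by small RNA, the host was called for 102 of the 251 members with a host (40.6%, 34.5 to 47.0%). All members of 1 host share its outcome, so this interval is too narrow, and no matching share over all genes exists. By the 4187 highest-signal calls of each replicate alone, 48 of 96 hosts were called in replicate 1, 40 in replicate 2 and 42 in replicate 3 (45.1% ± 4.34, SD, n = 3), and 12.6%, 12% and 12.2% of all genes were called in these 3 lists. Members at their own 5′ end were called in 18, 20 and 15 of 274 cases in the same lists (6.45% ± 0.918, SD, n = 3). In every replicate the share of hosts was above that of all genes and the share of members at their own end below it. Genes with 1 start site are the closer comparison for a single 5′ end. Their share by the IDR list, 8.45%, lay inside the members' interval, and their shares by replicate are not given here.

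**Figure D1:**
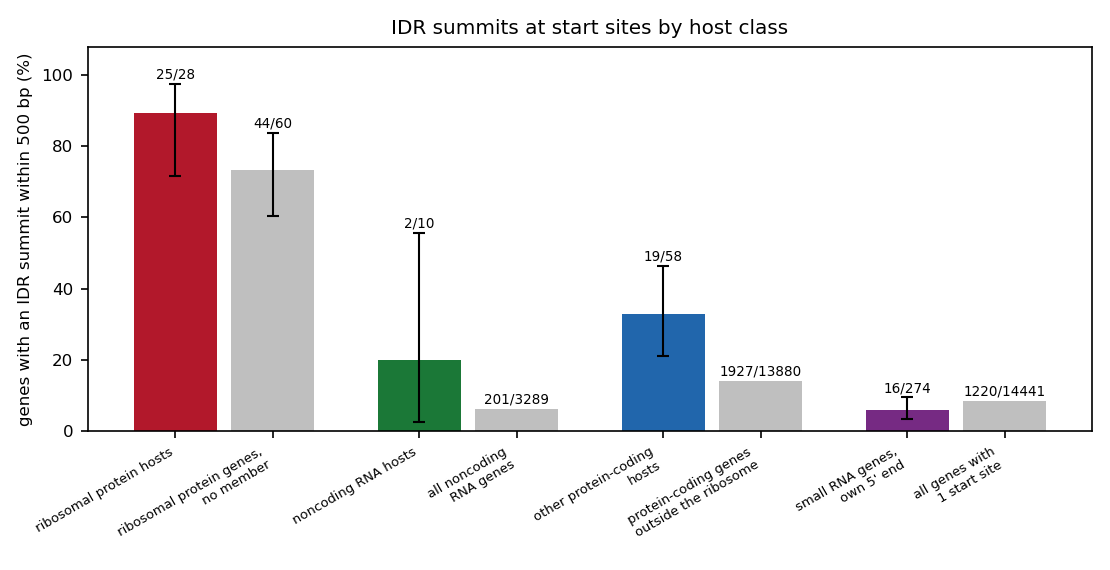
Percentage of genes called (y axis), that is with an IDR summit at most 500 bp from a start, with 3 host classes and the small RNA genes' own 5′ ends in colour and comparison genes in grey beside each. Numbers are genes called over genes counted and bars are exact 95% intervals, drawn for the host and member groups and for ribosomal protein genes without a member. The grey noncoding, protein-coding and single-start groups are whole annotation groups that include the coloured genes, and ribosomal protein hosts stand highest, at 89.3%.

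Ribosomal protein genes made up most of the called hosts. Of the 88 cytosolic ribosomal protein genes, whose products are the structural proteins of the cytoplasmic ribosome, 28 hosted 71 members, and 25 of the 28 had an IDR summit at a start site (89.3%, 71.8 to 97.7%). The 60 ribosomal protein genes without a member had one in 44 cases (73.3%, 60.3 to 83.9%), and these intervals overlap. By the top calls of single replicates 26, 23 and 26 of the 28 hosts were called (89.3% ± 6.19, SD, n = 3). Of the 71 small RNAs in these hosts, 66 had a called host (93.0%). At 12 of the 25 called hosts (48%) a start of another gene also lay within 500 bp of the summit. Among them were RpL14, RpL13A, RpL28, RpL3, RpS16 and RpL4. The host's own start was the nearest at 24 of 25, and at RpS6 that of CR33222 was nearer.

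RpS4 had the highest-ranked summit of these hosts. It lay 17 bp downstream of a start site (dm6, chr3L:13041650-13041987), at IDR rank 190 and at ranks 102, 311 and 163 in replicates 1, 2 and 3, with signals of 282, 408 and 304. RpS4 hosts 3 copies of a Psi28S-3327 guide. RpL14, host of the box C/D RNAs U49:66Da and U49:66Db, followed at IDR rank 320, with ranks 191, 641 and 162 and a summit 3 bp downstream of its start, a promoter shared with Nelf-E, which encodes a subunit of the negative elongation factor. RpL30, host of Me28S-A2113, was at IDR rank 359 (ranks 192, 607 and 301). RpL13A, host of 2 copies of Me28S-U2134, was at rank 362 (256, 568 and 245), with the starts of Dph4 and Spec2 in the window. RpL11, host of Psi28S-2444, was at rank 431 (246, 708 and 266). These peaks were among the top 1000 of all 3 replicates and stood lower in replicate 2 than in replicates 1 and 3.

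RpL28, with 5 box C/D members, had its summit at -22 bp, where a negative sign means upstream of the start, at IDR rank 544 and ranks 430, 919 and 371. RpL3, with 4 members, had it at 3 bp, at IDR rank 578 and ranks 318, 901 and 446. RpS3A, host of the 1 member on chromosome 4, was at IDR rank 654, and its summit at -8 bp ranked 320, 1032 and 654 in the replicates. RpL22 (IDR rank 695), RpL27A (859), RpS16 (917) and RpL4 (925) completed the ribosomal protein genes among the 20 hosts of highest signal. All 12 had summits from -42 to 17 bp of a start site. The 2 ribosomal protein hosts with most members ranked lower: RpS7, with 7, was at rank 1202 (1053, 1267 and 1119) and 19 bp, and RpS5a, with 14, at rank 1466 (980, 2158 and 937) and -69 bp.

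Over the 25 called ribosomal protein hosts the IDR rank ranged from 190 to 3339 with a median of 1105. Median ranks were 708, 1391 and 686 in replicates 1, 2 and 3. The peak ranked lower in replicate 2 than in replicate 1 at 23 of 25 of these hosts and lower than in replicate 3 at 25 of 25, while 1755 of 4146 IDR peaks with a rank in both lists (42.3%) ranked lower in replicate 2 than in replicate 1, and 1937 of 4113 (47.1%) lower than in replicate 3. The sequence within 50 bp of the summit held a median of 52.5% A+T at these hosts, 53.5% at ribosomal protein genes without a member and 66.3% over all IDR summits. The part of base composition in the ranks was not tested. The other protein-coding hosts ranked lower in replicate 2 than in replicate 1 at 12 of 19 genes and lower than in replicate 3 at 7 of 19, and had a median of 59.4% A+T.

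**Figure D2:**
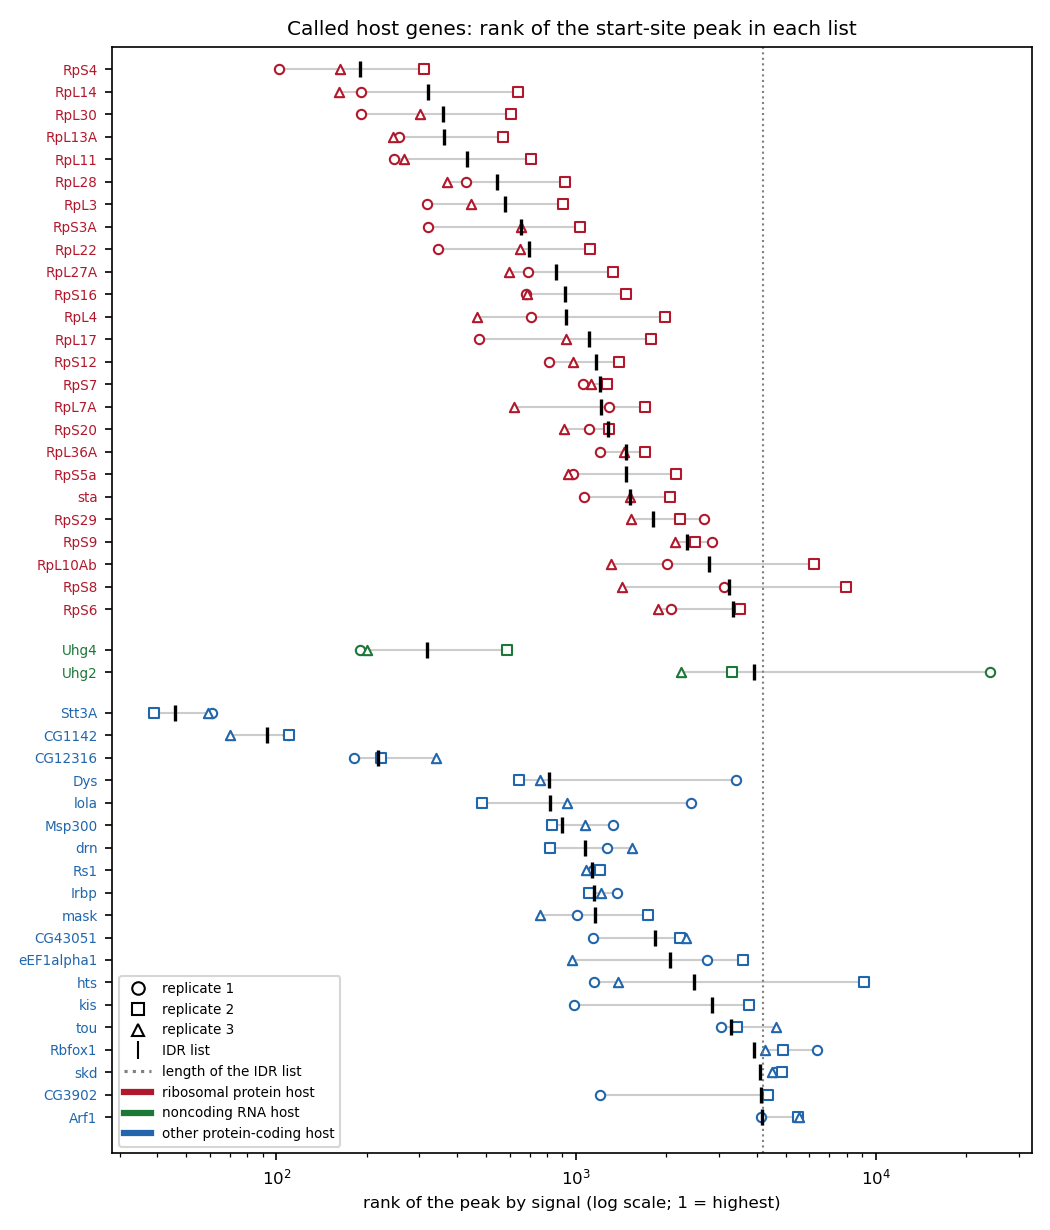
Rank by signal (x axis, log scale, 1 is highest) of the start-site peak of the 46 called hosts (rows, by host class) in replicate 1 (circles), replicate 2 (squares), replicate 3 (triangles) and the IDR list (black bars); the dotted line marks 4187. A missing symbol means no call within 250 bp of the IDR summit in that list. Squares lie rightmost for most ribosomal protein hosts, and the replicate 1 rank of Uhg2, 24080, lies far from its other ranks.

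Summits of ribosomal protein hosts sat on the start site. Their median distance from it was 21 bp, and 24 of 25 lay within 100 bp. The ribosomal protein genes without a member had a median of 13.5 bp. At other protein-coding hosts the median distance was 142 bp, with 8 of 19 within 100 bp, against 153 bp over the 1996 called protein-coding genes. Signed positions had a median of -8 bp at ribosomal protein hosts and -99 bp at other protein-coding hosts, against -135 bp over all 2232 called genes.

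**Figure D3:**
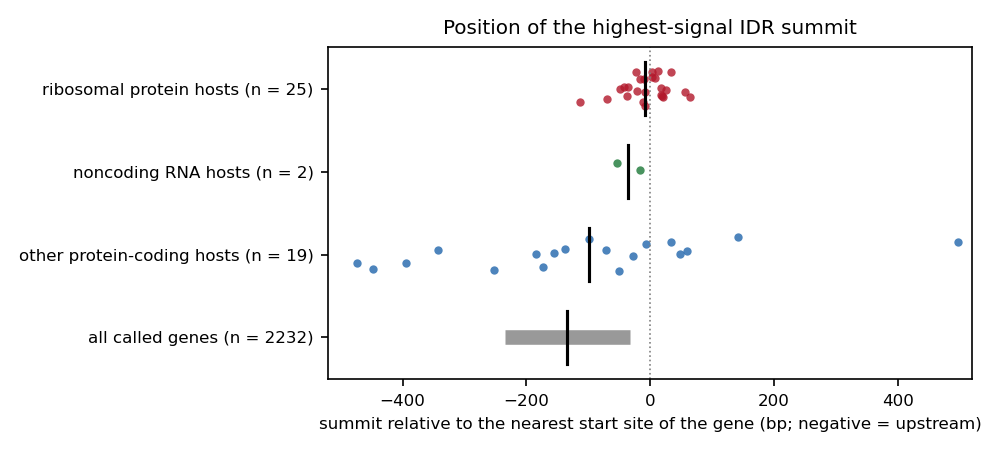
Position of the highest-signal IDR summit relative to the nearest start site of the gene (x axis, bp, negative upstream), 1 point per called host, with black bars for medians and a grey bar for the middle 50% of all 2232 called genes. Ribosomal protein hosts lie between -113 and 65 bp, and other protein-coding hosts spread from -474 to 498 bp.

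Among the 10 noncoding hosts, which carry 55 members and include the Uhg genes, 2 were called (20%, 2.52 to 55.6%), against 6.11% of all noncoding RNA genes. By the top calls of single replicates 1, 2 and 2 of the 10 were called. By a list built from the calls of replicates 1 and 2 alone the share was 10%, or 1 of 10. Uhg4, host of 7 members (2R, 9095086 to 9095334), had an IDR summit at -54 bp of rank 319, which ranked 190, 588 and 200 in the replicates, with signals of 208, 290 and 273. Uhg2, host of 4 members, among them both U14 genes, had one at -17 bp of rank 3917, near the end of the list. It ranked 24080, 3304 and 2239, with signals of 15.7, 95.8 and 67.5, so it was weak in replicate 1, and the start of Bka lay in the same window. Uhg1, with 16 members, had no IDR or pooled call and was listed at rank 5672 in replicate 1 and 4334 in replicate 3 only. Uhg5, with 11, had a pooled call of rank 6497. Of the noncoding hosts not called, lncRNA:CR42491 lies within the called RpL22 and lncRNA:CR45184 within Sf3b3, on the same strand. They count as hosts because the shortest containing gene was taken.

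The 58 other protein-coding hosts, with 125 members, were called in 19 cases (32.8%, 21.0 to 46.3%), against 13.9% of protein-coding genes outside the ribosomal proteins. Any start site counts here, and these hosts have 118. By the 5′-most start site alone 22.4% were called (12.5 to 35.3%), against 12% of all protein-coding genes. By single replicates 21, 15 and 14 of them were called (28.7% ± 6.53, SD, n = 3). At 6 of the 19 the nearest start site to the summit belonged to another gene, which leaves 13 of 58 (22.4%). The highest peak of any host was of this kind. It lay at -394 bp from the start of Stt3A, which encodes a catalytic subunit of oligosaccharyltransferase, at IDR rank 46 and ranks 61, 39 and 59, and the nearest start was that of bves. Stt3A hosts the scaRNA MeU2-C28 and 2 copies of Me28S-U3344.

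CG1142, host of the scaRNA MeU5-C46, had its own summit at -173 bp (rank 93, and 109, 110 and 70 in the replicates). CG12316, host of the scaRNA MeU5-U42, had one at 142 bp (rank 218, and 182, 224 and 340). These 2 were alike in all replicates. Long genes followed: Dys, the dystrophin gene, at rank 810 (3417, 647 and 758), lola, a gene for BTB transcription factors of axon guidance, at rank 816 (2419, 484 and 932), Msp300, which encodes a nesprin, at rank 899 (1332, 832 and 1067), and drn at rank 1071 (1272, 820 and 1534). Of these 4, all ranked highest in replicate 2, whereas 12 of the 19 hosts of this class ranked lower there than in replicate 1.

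A larger number of small RNAs did not go with a larger share of called hosts. Of 14 hosts with 5 or more members 5 were called (35.7%, 12.8 to 64.9%), against 13 of 23 with 2 to 4 members (56.5%, 34.5 to 76.8%) and 28 of 59 with 1 member (47.5%, 34.3 to 60.9%), and these intervals overlap. All 4 ribosomal protein hosts with 5 or more members were called, and none of the 6 other protein-coding hosts of that size. Among these 6 was Arpc2, which encodes a subunit of the actin-nucleating Arp2/3 complex and holds 17 members, the most of the 96 hosts. It had no pooled call within 500 bp of a start and was listed only at rank 12513 in replicate 1 and 12539 in replicate 3. The chromatin remodeller gene dom, with 15 members, was listed only in replicate 1, at rank 7608. The translation regulator gene kra, with 8, had a pooled call of rank 7548, Hrb98DE, an hnRNP gene with 7, one of rank 12125, and Nop60B, with 7, one of rank 10846.

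**Figure D4:**
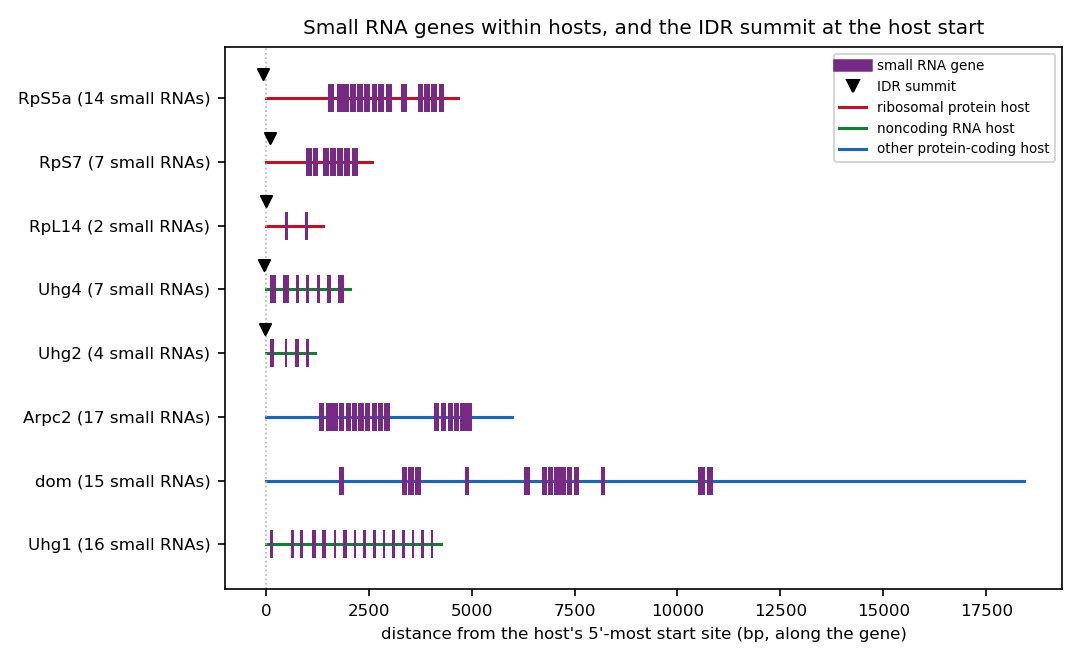
Small RNA genes (purple boxes) along 8 hosts, drawn from the 5′-most annotated start (x axis, bp along the gene), with black triangles for IDR summits within 500 bp of a start. RpS5a, RpS7, RpL14, Uhg4 and Uhg2 carry a summit at the start, and Arpc2, dom and Uhg1 carry none, although they hold 17, 15 and 16 small RNAs.

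The summits counted at the small RNAs' own ends were largely those of the hosts. Of the 16 called members, 13 shared the summit with a start site of the host, and 14 distinct summits served all 16. The 5′ end of 33 members lay within 500 bp downstream of a host start, and 12 of these were called (36.4%, 20.4 to 54.9%), against 2 of 218 members further from one (0.917%, 0.111 to 3.27%). The windows of the 33 overlap the window of the host start, so this difference follows in part from position alone. Of the 16 called members, 8 in all were in ribosomal protein hosts: Or-CD11a (summit at -441 bp from its 5′ end), U49:66Da (-464), Psi18S-920 (-181), Me28S-A774b (-220), Psi18S-1275 (-311), Psi28S-2648 (-452), Psi28S-1232 (-406) and Or-aca2 (-95). Psi28S-2949 (-153) and Or-aca5 (-466) shared the Uhg4 summit, Me18S-A1576 (-113) and Me18S-G1620 (-476) shared that of Uhg2, and the summit at -324 bp from CG43051-a lay at -155 bp from its host CG43051. All 13 of these small RNAs had the summit upstream of their 5′ end.

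For 3 members the small RNA's own 5′ end was the nearest annotated start. The summit at snoRNA:Psi18S-176, a pseudouridylation guide without a host (2R, 23839911 to 23840064, minus strand), lay 19 bp inside the gene, which made it the only member that contained an IDR summit. It was at IDR rank 1334 and at ranks 2514, 1177 and 1387 in the replicates, with signals of 56.2, 189 and 95.4. The summit near snoRNA:Or-ACA6, an orphan RNA that lies antisense within egr, the gene for a tumour necrosis factor, was at -473 bp, at IDR rank 795 and ranks 1076, 950 and 542. That near snoRNA:Or-ACA9, in the metalloprotease gene AdamTS-A, was at -239 bp and 3306 bp inside the host, at rank 3282 and ranks 14468, 2550 and 3912. The first 2 were among the top 4187 calls of each replicate, and that near Or-ACA9 was not in replicate 1.

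Widening the window from 250 to 1000 bp raised the count at own ends, raised that at hosts less, and left that at ribosomal protein hosts unchanged. Within 250 bp 7 of 274 members were called (2.55%) and within 1000 bp 47 (17.2%), against 9.01% and 15.5% of all genes, so the order of members and all genes turned round. The share of ribosomal protein hosts was 89.3% in both of these windows. At the edge of the 500 bp window, taking for each host the summit nearest to a start, summits lay inside at 343 bp (Msp300), 394 bp (Stt3A) and 474 bp (skd, a Mediator subunit gene), and outside at 514 bp (pAbp, the gene for poly(A)-binding protein, a peak of rank 515), 526 bp (CG42564) and 1362 bp (lncRNA:CR42491). The last of these was the RpL22 peak, of rank 695, as lncRNA:CR42491 lies within RpL22. Of the called hosts, lola and tou had their highest-signal summit farther out, at -447 and 498 bp, and another summit nearer, at 40 bp (rank 3043) and -101 bp (rank 3646). For own ends, Or-aca5, Or-ACA6 and Me18S-G1620 lay inside at 466, 473 and 476 bp, and Me18S-C1096, Or-CD13 and Psi18S-1295 outside at 508, 524 and 542 bp. Counting only the 5′-most start site left 40 of 96 hosts called (41.7%), against 12% of protein-coding genes.

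**Figure D5:**
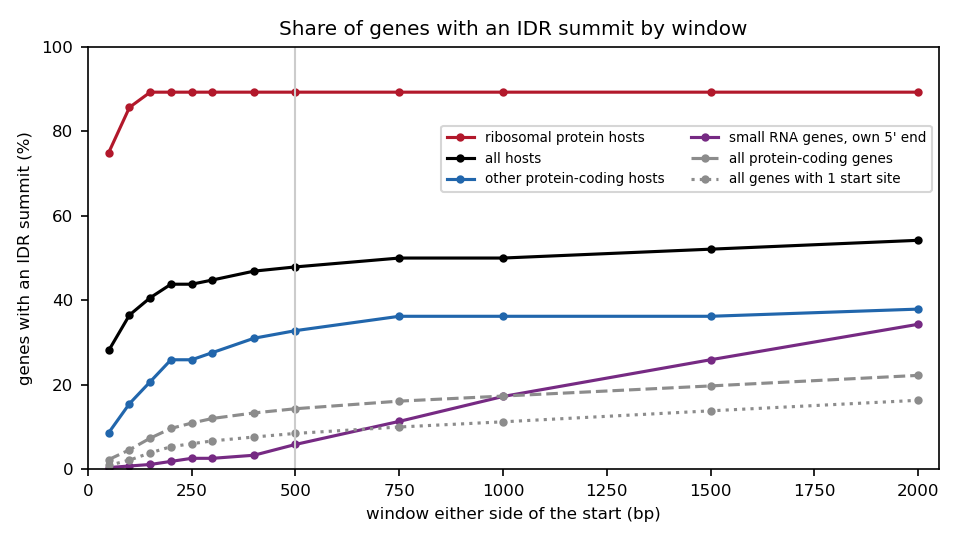
Share of genes with an IDR summit (y axis, percent) against the distance allowed on either side of the start (x axis, 50 to 2000 bp), for ribosomal protein hosts, all hosts, other protein-coding hosts and small RNA genes at their own 5′ end (solid lines), with all protein-coding genes (dashed) and genes with 1 start site (dotted). The grey vertical line marks 500 bp; ribosomal protein hosts reach 89.3% by 150 bp, while the line for own 5′ ends climbs from 5.84% at 500 bp to 34.3% at 2000 bp.

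Calls of any rank in the pooled list lay at 69 of 96 hosts (71.9%, 61.8 to 80.6%), against 44.8% of protein-coding genes, and at the own 5′ end of 50 of 274 members (18.2%, 13.9 to 23.3%), against 41.1% of all genes. This list holds background calls by design. The 23 members without a host had a pooled call at their own end in 12 cases and an IDR summit in 2. By class, the host was called for 43 of 106 Psi members (40.6%), 29 of 78 Me members (37.2%) and 5 of 17 scaRNAs (29.4%). The classes sat in different hosts: 36 of 78 Me members (46.2%) and 2 of 106 Psi members (1.89%) were in noncoding hosts, and 18 Me and 40 Psi members in ribosomal protein genes, so differences between classes cannot be told apart from those between hosts. Uniqueness of sequence also differed: 202 of 274 members held no 31-base word found elsewhere in the genome, 10 held such repeats over more than 50% of their words, and 91 of 96 host start windows of 501 bp held none, with 11.7% as the highest.

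Motif letters at start sites were counted from 250 bases before to 50 after each start, on both strands, with start sites counted per strand. Start sites of 1 gene can share sequence, so these shares are given without intervals. The TCT-like start, CTTTC or CTTTT beginning within 5 bases of the start and read on the gene's strand, was at 23 of 56 start sites of ribosomal protein hosts (41.1%), 38 of 96 of ribosomal protein genes without a member (39.6%), 8 of 118 of other protein-coding hosts (6.78%), and 4.14% of all 23697 start sites. The DRE letters TATCGATA, bound in flies by the promoter factor Dref, were at 14 of 56 ribosomal protein host starts (25%) and 6.77% of all. At ribosomal protein genes without a member they were at 26 of 96 starts (27.1%). GAGAG was at 59 of 118 starts of other protein-coding hosts (50%), 9 of 56 of ribosomal protein hosts (16.1%) and 32.4% of all. Ribosomal protein genes without a member held it at 16 of 96 starts (16.7%). The E-box letters CACGTG were at 4 of 12 starts of noncoding hosts (33.3%) and 4.09% of all. TATAAA was at 38.7% of host starts and 41.4% of all, and CAGCTG at 10.2% and 16.5%. Among other protein-coding hosts GAGAG was at 34 of 55 starts of the 19 called genes (61.8%) and 25 of 63 of the 39 genes not called (39.7%). The TCT-like start went the other way, at 2 of 55 starts of these called genes (3.64%) and 6 of 63 of those not called (9.52%). So did the DRE letters, at 5 of 55 (9.09%) and 11 of 63 (17.5%). These counts are small. The called genes also have more start sites per gene, and any start site counts towards a call.

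The proteins that act with these RNAs are coded by genes of their own. Of 16 listed genes for snoRNP and scaRNP proteins and their assembly factors, 4 had an IDR summit at a start (25%, 7.27 to 52.4%). The share of protein-coding genes, 14.3%, is inside that interval. A pooled call of any rank lay at 10 of the 16, against 44.8% of protein-coding genes. Among core proteins of box H/ACA particles NHP2 was called, at -232 bp and rank 988; it ranked 988 in replicate 2 and 989 in replicate 3 and had no call in replicate 1. Nop60B, the pseudouridine synthase, and Nop10 and Gar1 were not called. None of the core genes of box C/D particles was called, among them Fib, the methyltransferase fibrillarin, which hosts a snoRNA itself and had a pooled call of rank 5530, and Nop56, nop5 and hoip. The ATPases pont and rept, which assemble such particles, had summits at -138 bp (rank 940, and 2496, 720 and 1137) and -123 bp (rank 3590, and 2896, 3156 and 5665), windows that also held the starts of Sirt6 and mRpL21. Nopp140, a nucleolar chaperone, had one at -65 bp (rank 4046), with CG7148 in the window. Nufip, spag, coil, WDR79 and ldbr were not called.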

How the data were processed

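The members and gene lists were chosen with earlier results of these data known. Per the deposited file listings, calls for a replicate came from its own alignments and a control, the pooled calls from all 3 replicates together, and the IDR list from these 4. Which aligner, caller and IDR threshold were used is not given in the sources used here. Each call has the authors' own deposited signal value, with no stated normalization. Fragments were 200 to 800 bp and coordinates are dm6, per the labels. Summits were set against start sites of Ensembl release 115 (BDGP6.54) with Python 3.11.15, pandas 2.3.3, numpy 2.4.6 and scipy 1.17.1; transposable elements were left out, and genes and peaks lay within the chromosome ends of the RefSeq genome, which gave all sequence and the same coordinates for all 274 members and 96 hosts. A gene was called where a summit lay within 500 bp of a start, and a replicate's rank is that of the highest-signal call within 250 bp of the IDR summit, or, for genes without an IDR summit, within 500 bp of a start. The window search was tested on simulated summits. No test was made, because there is 1 group and the lists were chosen; shares have exact 95% Clopper-Pearson intervals. The genes named are the members called at their own end, the 20 called hosts of highest signal, the 10 hosts with most members, the 3 on each side of the window's edge, and the snoRNP genes. Other hosts named were chosen after their values were seen. Alternatives were other windows, list lengths, host definitions and replicates left out.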

Additional observations from a re-analysis of the deposited data

How the results depend on the processing

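Of 73 alternatives to the reported shares, median position and motif counts, 56 gave a value inside the 95% interval of the main value. For the median position its quartiles were used instead. Lying inside says little for noncoding hosts, whose interval runs from 2.52 to 55.6%. The intervals for motifs and for members by host are too narrow, as start sites of 1 gene or members of 1 host are not separate draws. The share of ribosomal protein hosts stayed inside in all of its alternatives. No paired analysis was possible because there is 1 group. With the higher-signal 2093 IDR peaks, 35.4% of hosts, 20.7% of other protein-coding hosts and 34.3% of members by host were called, where 7.84% of protein-coding genes were. With the 2512 IDR peaks that had top calls in all 3 replicates, 37.5% of hosts and 20.7% of other protein-coding hosts were called, against 8.92%. With pooled calls of any rank, the values were 71.9% of hosts, 63.8% of other protein-coding hosts, 66.5% of members by host and 18.2% of members at their own end. Hosts outside the ribosomal proteins were called in 30.9% of cases, and members in them by host in 20%. At own ends, windows of 250 and 1000 bp gave 2.55% and 17.2%, and summits nearest to the own end 1.09%. Each list with 1 replicate left out was built anew from the remaining replicates and was not an IDR list. It held the 4187 calls, matched within 250 bp, that had the best mean rank. In these lists 14.2% to 14.8% of protein-coding genes were called. Leaving out 1 replicate gave 43.8% to 50% of hosts, 89.3% to 92.9% of ribosomal protein hosts, 25.9% to 37.9% of other protein-coding hosts, 10% (without replicate 3) to 20% of noncoding hosts, 39.0% to 48.2% of members by host, the last without replicate 2, and 6.57% to 7.3% of members at their own end. Within 100 bases of host starts, GAGAG was at 26.9% and TATAAA at 19.4%, against 24.3% and 26.1% of all starts in that window. The settings for host classes were chosen after seeing the data. The count of noncoding hosts, 10, limits that share.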

Other observations

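Some hosts carried IDR summits in the gene body, more than 500 bp from any annotated start site of any gene. There were 10 such hosts of 96, all of them protein-coding genes outside the ribosomal proteins. The same share over all genes is not given here, so the count cannot be called high or low. Over the whole IDR list, 1813 of 4187 summits lay within 500 bp of a start site. The dystrophin gene Dys held 6 such summits over 136204 bp, the best at rank 282, and tou held 4 over 38561 bp, the best at rank 593. The genes hts, Rbfox1, Msp300, kis and drn held 2 each, and lola, pAbp and Stt3A held 1 each. No ribosomal protein host and no noncoding host held one. Spans differ widely between the classes, and their part in these counts was not tested.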
